A study of Mus musculus with 36 samples.

Results

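The interferon-stimulated genes described here are 38 named genes of the 55487 in the count table, among them the OAS, IFIT, MX and PARP families, the ISG15 system, RNA sensors and the factors that carry interferon signals. They were taken by symbol, and all 38 were in the table. Their transcripts were followed in 36 bulk RNA-seq libraries of the unmyelinated optic nerve (UON), the myelinated optic nerve (MON) behind it and the retina, with 12 libraries per tissue. The mice were C57BL/6 animals, 2 to 4 months old. The groups were bilaterally naïve mice, mice 3 days (3 D) or 2 weeks (2 W) after unilateral crush of the nerve with forceps, and mice 3 D, 2 W or 6 weeks (6 W) after unilateral injection of microbeads into the anterior chamber, a model of glaucoma that raises eye pressure. Each group of each tissue was 2 libraries, 1 of pooled RNA from 2 female mice and 1 of pooled RNA from 2 male mice, so n = 2 pools, and a pool stands for its mice and its sex at once. The same mice gave all 3 tissues, and paired values below are always the female pool followed by the male pool.

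The libraries held 16.2 to 78.1 M counts. The labelled sex matched the sex-linked transcripts in 36 of 36 libraries. The tissue labels also held. Summed photoreceptor markers lay between 57900 and 74700 CPM (counts scaled to a common library size) in the retina and between 8.87 and 362 in the nerve, and summed myelin markers lay between 44700 and 167000 CPM in the MON, between 3250 and 42400 in the UON and between 78.2 and 141 in the retina. In whole tissue, fewer cells of a type and less RNA per cell cannot be told apart.

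Interferons are secreted proteins that cells release when they sense viral or misplaced nucleic acid. Type I interferon binds a receptor whose kinases activate a transcription factor complex, ISGF3. This complex, which holds STAT2 and IRF9, binds a short promoter element, the interferon-stimulated response element (ISRE), and switches on a broad set of antiviral genes. A low tonic level of this program is known in unstimulated tissue, and microglia, astrocytes and endothelial cells of the nervous system can all mount it.

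This set of genes is known for the ISRE, so the promoters were searched for its core, GAAANNGAAA on one strand or TTTCNNTTTC on the other. RefSeq promoters of GRCm38.p6, from 250 bases before to 50 bases after the start of the gene, were matched for 28 of the 38 genes. The core was in 14 of these 28 promoters (50%), against 1079 of 27025 promoters of all genes (3.99%). The stretches below are examples from the IFIT, ISG15, OAS and effector genes whose levels are described after them. Each runs 5′ to 3′ on the strand of its gene, with matches in capitals, and overlapping matches form 1 run of capitals in Isg15, Oas1a and Bst2.
Isg15, chr4:156200865-156200906, minus strand: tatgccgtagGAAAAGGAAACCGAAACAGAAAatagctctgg
Ifit1, chr19:34640775-34640823, plus strand: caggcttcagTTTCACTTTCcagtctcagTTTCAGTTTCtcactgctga
Ifit3, chr19:34583363-34583426, plus strand: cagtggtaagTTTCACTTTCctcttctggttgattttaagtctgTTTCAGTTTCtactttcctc
Ifit3b, chr19:34607759-34607822, plus strand: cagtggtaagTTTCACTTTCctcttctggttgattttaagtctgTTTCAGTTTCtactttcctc
Rsad2, chr12:26456553-26456582, minus strand: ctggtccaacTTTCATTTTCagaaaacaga
Oas1a, chr5:120907526-120907555, minus strand: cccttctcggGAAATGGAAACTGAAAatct
Bst2, chr8:71537577-71537612, minus strand: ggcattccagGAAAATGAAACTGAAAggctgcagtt
The stretches of Ifit3 and Ifit3b, neighbours on chromosome 19, are the same letter for letter. A match is a description of the letters and not a shown binding site.

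The first question was how the interferon-stimulated genes were set in the uninjured nerve and retina. In naïve mice they stood in the order UON, MON, retina. No gene had a lower fitted level in UON than in MON, Trim56 being level at a log2 fold change of 0.00. All 38 had a higher fitted level in either nerve region than in retina. In both pools of mice 36 of 38 were higher in UON than in MON in CPM, the exceptions being Dhx58 and Trim56. The whole order held in both pools for 32 of 38. No share of all genes is given for these orders. Levels between genes are given below in FPKM, the authors' StringTie values, in which fragments are divided by transcript length and by library size. In FPKM, Trim25 was lower in MON than in retina in both pools, at 4.91 and 9.25 against 9.44 and 11. Mean FPKM was also lower in MON than in retina for Irf7 (10.2 against 12.2) and Oas3 (0.035 against 0.0406).

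The factors of the pathway were present in every tissue. Irf9, the DNA-binding part of ISGF3, read 49.8 and 25.1 FPKM in UON, 19.8 and 11.3 in MON, and 4.12 and 3.5 in retina. Irf7, the factor that amplifies type I interferon production, read 49.8 and 23.1 in UON, 12.9 and 7.49 in MON, and 11.9 and 12.5 in retina. Retina and MON therefore overlapped for Irf7. Exons of Irf7 overlap those of Phrf1 on the opposite strand, and the strand setting of the counting is not given in the sources used here. Stat2, also part of ISGF3, read 25.3 and 6.42 in UON, 11.9 and 11.7 in MON, and 8.04 and 12.7 in retina, with overlap between all 3 tissues.

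Of the sensors, Ddx58, which encodes the viral RNA sensor RIG-I, read 23.2 and 10.9 FPKM in UON, 6.84 and 4.69 in MON, and 1.51 and 1.91 in retina. Ifih1 encodes MDA5, the sensor of long double-stranded RNA, and read 8.71 and 3.41, 2.91 and 0.991, and 0.341 and 0.451 in the same order of tissues. Dhx58 encodes LGP2, a regulator of both, and read 5.62 and 1.12, 1.95 and 1.97, and 1.09 and 1.37, so that the UON pools overlapped those of MON and of retina. Zbp1, a sensor of Z-form nucleic acid, showed a steep gradient at 20.8 and 10.6, 1.68 and 0.166, and 0 and 0.0563.

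The enzymes that double-stranded RNA switches on were low to moderate. Oasl2, an OAS-like protein, was the most abundant at 82.4 and 36.9 FPKM in UON, 20.3 and 7.51 in MON, and 3.18 and 3.67 in retina. Oas1a, which makes the messenger that activates RNase L, read 12.9 and 4.13, 2.82 and 1.74, and 0.0637 and 0.234, and 47.6% of its sequence in words of 75 bases also occurs in other genes, so its reads may be split with Oas1g. Its relatives were lower. Oas2 read 3.99 and 0.706, 0.314 and 0.184, and 0.0583 and 0. Oas3 read 1.29 and 0.295, 0.0564 and 0.0135, and 0.0614 and 0.0198, near the floor outside the UON. Eif2ak2 encodes the kinase PKR, which halts translation, and read 14.3 and 7.19, 4.16 and 4.9, and 1.39 and 1.62.

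The IFIT proteins bind foreign RNA ends, and Ifit3 had the highest level of the 38 genes in the female UON pool. Ifit3 read 556 and 124 FPKM in UON, 133 and 45.8 in MON, and 9.83 and 12.2 in retina. Its near copy Ifit3b read 147 and 38.2, 56.6 and 19.8, and 4.77 and 5.01. Between 35.7% and 41.1% of the 75-base words of this pair occur in other genes, so how reads were split between them is uncertain. Ifit1 read 331 and 42.9, 37.5 and 6.18, and 1.09 and 1.51. Ifit2 read 105 and 28.1, 20.7 and 8.36, and 1.75 and 1.85. For each of the 4 genes the male UON pool lay well below the female UON pool.

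In the ISG15 system, which tags proteins with a ubiquitin-like modifier, Isg15 itself read 103 and 13.3 FPKM in UON, 13.7 and 6.33 in MON, and 2.02 and 1.3 in retina. Usp18, which removes the tag and dampens the type I receptor, read 108 and 16.5, 23 and 8.17, and 1.19 and 1.77. Herc6, the ligase, read 14 and 7.34, 5.92 and 2.71, and 0.582 and 0.66. Trim25, a ubiquitin ligase of RIG-I signalling, was the flattest of the group at 16.9 and 8.93, 4.91 and 9.25, and 9.44 and 11. Among the GTPases, Gbp3 read 30.8 and 12.4, 6.77 and 2.76, and 1.44 and 0.891. The dynamin-like antiviral genes were low. Mx1 read 1.75 and 0.531, 1.22 and 0.115, and 0 in both retina pools, and Mx2 read 3.62 and 1.03, 2.25 and 1.36, and 0.516 and 0.193.

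Of the other effectors, 4 were abundant in every nerve pool. Ifi27l2a, a small membrane-associated protein, read 192 and 126 FPKM in UON, 42.7 and 93.7 in MON, and 0.655 and 1.1 in retina. Lgals3bp, a secreted glycoprotein, read 93.5 and 89.4, 35.4 and 38.9, and 6.02 and 4.12. Bst2, which encodes tetherin, read 69.3 and 56, 32.6 and 48.2, and 5.47 and 3.88. Xaf1, a pro-apoptotic factor, read 42.8 and 38.9, 26.9 and 24.8, and 3.92 and 3.92. The male and female pools of UON were closer for these genes than for the IFIT genes. Rsad2 encodes viperin and read 26.2 and 2.44 in UON, 7.99 and 1.11 in MON, and 0.319 and 0.452 in retina. Its neighbour Cmpk2 read 55.4 and 12.9, 13.4 and 3.43, and 4.79 and 4.7. Rtp4, a chaperone of receptors, read 88.4 and 17.1, 18.9 and 4.55, and 1.8 and 0.589. Ifi35 read 45.5 and 27, 14 and 11.5, and 6.5 and 6.43. Samd9l, a translation inhibitor, read 9.02 and 2.61, 1.95 and 0.965, and 0.194 and 0.414. Ifi44 read 6.15 and 1.83, 0.781 and 0.061, and 0.195 and 0.136.

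Of the TRIM and PARP proteins, Parp9 and its partner Dtx3l, a ubiquitin ligase, read 22 and 8.73 FPKM and 12.8 and 5.7 in UON, 6.71 and 1.59 and 4.06 and 1.55 in MON, and 1.86 and 1.24 and 0.617 and 0.651 in retina. The pair overlap on opposite strands, and the strand setting of the counting is not given in the sources used here. Parp14, a mono-ADP-ribosyl transferase, read 9.69 and 2.33, 2.19 and 1.6, and 0.568 and 1.02. Trim30a, a regulator of Toll-like receptor signalling, read 13.2 and 3.6, 1.6 and 2.13, and 0.187 and 0.124. Trim56, a ligase of nucleic acid sensing, read 4.75 and 3.73, 2.33 and 3.51, and 0.521 and 0.531. In CPM its order between the nerve regions was not the same in the 2 pools, at 5.17 and 12.9 in UON and 2.99 and 17.5 in MON.

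**Figure D1:**
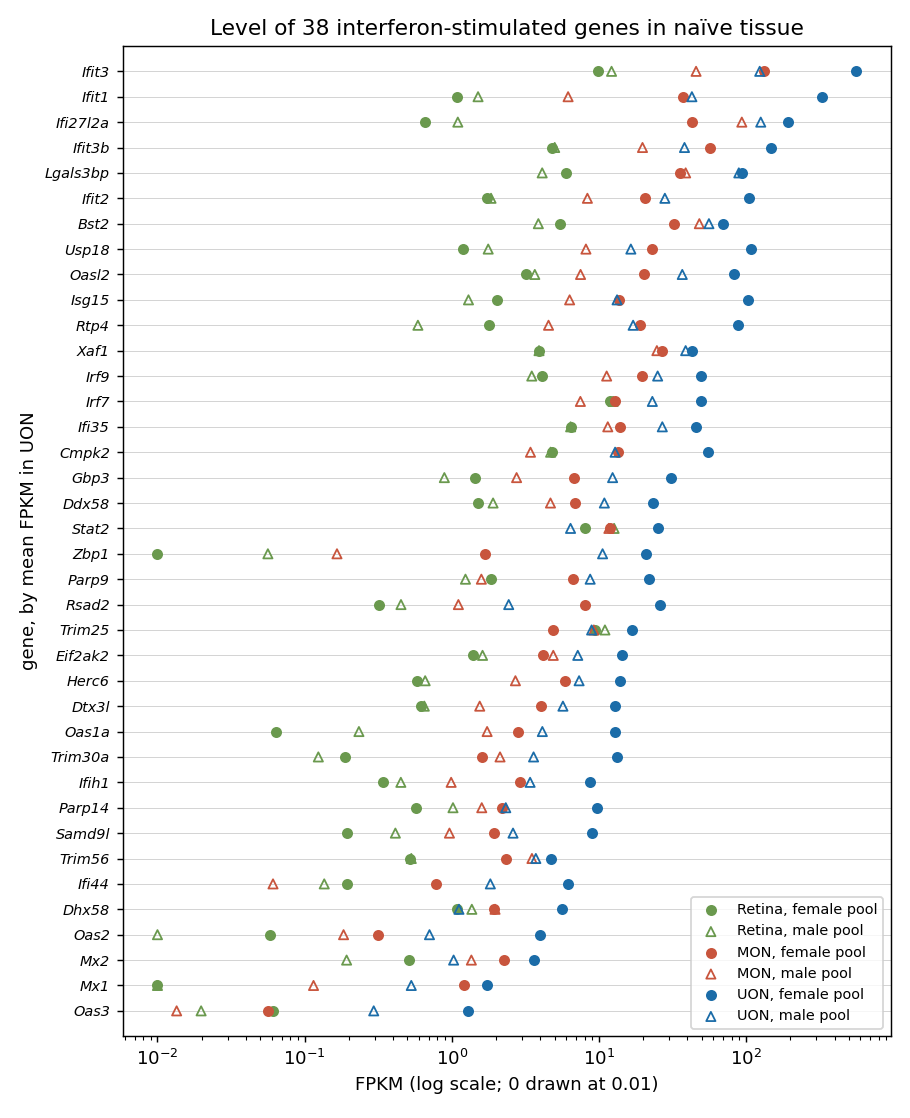
Naïve levels of the 38 interferon-stimulated genes in FPKM on a log axis, ordered by mean FPKM in UON, with 1 point per pool (female and male) for UON, MON and retina. In FPKM the UON points lie to the right of the MON points in both pools for 34 of 38 genes, the exceptions being Dhx58, Mx2, Stat2 and Trim25, and the UON female points stand apart from the male ones in most rows.

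The regional order was tested with edgeR's quasi-likelihood test on the counts of the 6 naïve libraries, with tissue and sex as terms. A gene was called differentially expressed at a Benjamini-Hochberg adjusted p under 0.05 over all genes tested and a log2 fold change beyond 1. Between UON and MON, 14 of 38 genes were called, all higher in UON, where 4.83% of the 23685 genes tested were called higher in UON. The median log2 fold change over the 38 was 1.72. Both UON pools lay above both MON pools for 26 of 38, against 26% of all genes tested, where such counts without overlap use the normalization factors of the fit and can differ by a few genes from the CPM printed here. Every role group held at least 1 called gene. The group medians ran from 1.25 for the transcription factors and the GTPases to 2.08 for the double-stranded RNA-activated enzymes.

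The regional calls with the smallest adjusted p were Rtp4 (log2 fold change 2.12 ± 0.24 SE, edgeR adjusted p 0.00309) and Gbp3 (2.04 ± 0.24, adjusted p 0.00324). In CPM, Rtp4 read 144 and 33.6 in UON against 29.8 and 8.42 in MON, and Gbp3 read 90.2 and 39.8 against 22.6 and 8.95, with no overlap for either. Lgals3bp was higher by 1.27 ± 0.21 (adjusted p 0.0121), Irf7 by 1.63 ± 0.29 (0.0152) and Oasl2 by 2.08 ± 0.38 (0.0167). The largest called changes were those of the low genes Oas3 (4.08 ± 0.87, adjusted p 0.0303) and Ifi44 (3.27 ± 0.74, 0.0358). The remaining calls were Ifi35, Herc6, Ifit2, Irf9, Ddx58, Parp9 and Dtx3l, with log2 fold changes from 1.25 to 2.12. Other genes with a difference beyond 1 did not pass. Ifit1 was at 2.92 ± 0.74 (adjusted p 0.053), Isg15 at 2.05 ± 0.53 (0.0537), Zbp1 at 3.71 ± 0.97 (0.0583) and Rsad2 at 1.34 ± 0.75 (0.334).

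The count of regional calls turned on single pools. The share of all genes called under each omission is not given, so a change particular to the 38 is not shown. Without the female naïve UON pool 10 of 38 genes were called and the median was 1.12, and without the male naïve UON pool 30 were called and the median was 2.01. Without the female naïve MON pool 11 were called (median 1.98), and without the male naïve MON pool 5 were called (median 1.42). Rtp4 and Gbp3 were called under each of these 4 omissions. Lgals3bp was lost without the male UON pool (adjusted p 0.0875), and Irf7 (0.0536) and Oasl2 (0.0535) were lost without the male MON pool. Ifi44, Herc6 and Parp9 were lost without the male MON pool alone, and Ifi35, Ifit2, Irf9, Ddx58 and Dtx3l under 2 or 3 of the 4 omissions. Oas3 was called when the male UON pool was the one left out, with adjusted p from 0.0975 to 0.334 under the other 3 omissions. Without the sex term, which pairs the tissues of the same mice, 5 of 38 were called.

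Against the retina the differences were larger. From UON to retina 34 of 38 genes were called, all higher in UON, where 18.2% of genes were called higher in UON, and the median log2 fold change was 4.38. Both UON pools were above both retina pools for 37 of 38, against 35.6% of all genes. From MON to retina 30 of 38 were called, against 16.7%, with a median of 2.83, and 32 of 38 did not overlap, against 34.6%. Ifi27l2a was among the widest differences, at 109 and 76 CPM in UON, 27.7 and 52.4 in MON and 0.32 and 0.507 in retina, which gave 7.90 ± 0.51 (adjusted p 4.87e-05) for UON and 6.64 ± 0.49 (9.76e-05) for MON. Lgals3bp was higher in UON than retina by 4.81 ± 0.24 (adjusted p 2.71e-05), and Ifit1 by 6.65 ± 0.92 (0.00133). Mx1 had 0 counts in both naïve retina pools, so against a floor of 3 counts per library its level was at least 57.9-fold higher in UON and at least 27.9-fold higher in MON, and both list medians stayed at 4.38 and 2.83 with that bound. Stat2, Trim25, Dhx58 and Trim56 were not called between UON and retina, and Irf7 was not called between MON and retina (0.25 ± 0.29, adjusted p 0.573).

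Microglia are a main site of this program in the nervous system. Their 10 markers, all above 0 in every naïve library, summed to 1020 and 857 CPM in naïve UON, 1350 and 1170 in MON, and 58.6 and 48.9 in retina. The sum was lower in UON than in MON and lowest in retina. The fibroblast and astrocyte marker genes had median log2 fold changes of UON over MON of 1.94 and 0.72. Endothelial and myeloid markers are not given for this comparison. The part of cell composition in the regional order was not tested.

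The genes were spread unevenly between pools of the same group. Summed over the 38, naïve UON held 6110 CPM in the female pool and 2020 in the male pool, and naïve MON held 1690 and 756. The naïve retinas of the same mice held 209 and 217. The female pool was over 2-fold higher for 28 of 38 genes in UON, against 20.8% of all genes, and for 24 of 38 in MON, against 16.1%, but for 3 of 38 in retina, against 11.8%. The median difference was 1.54 on the log2 scale in UON and 1.32 in MON. Ifit1 read 1080 and 148 CPM in naïve UON, Rsad2 126 and 12, and Usp18 231 and 36.6. The female naïve UON pool was the highest of all 12 UON libraries for 23 of 38 genes, a count with no share of all genes beside it.

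In the naïve UON pools the microglial markers summed to 1020 and 857 CPM, and the T and NK cell markers to 4.49 and 4.45. The part of cell composition in the pool difference was not tested. Among the 28 genes with a promoter sequence, 14 had an ISRE core such as those printed above for Ifit1 and Rsad2. Their median female excess in UON was 1.74 (range 0.22 to 3.38), against 0.97 (range -1.31 to 2.00) for the 14 without, so the ranges overlapped. In MON the medians were 1.31 against 1.27. Those medians are a description of these pools, and sex and the mice of a pool cannot be told apart. Each comparison with naïve below rests on these 2 pools.

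**Figure D2:**
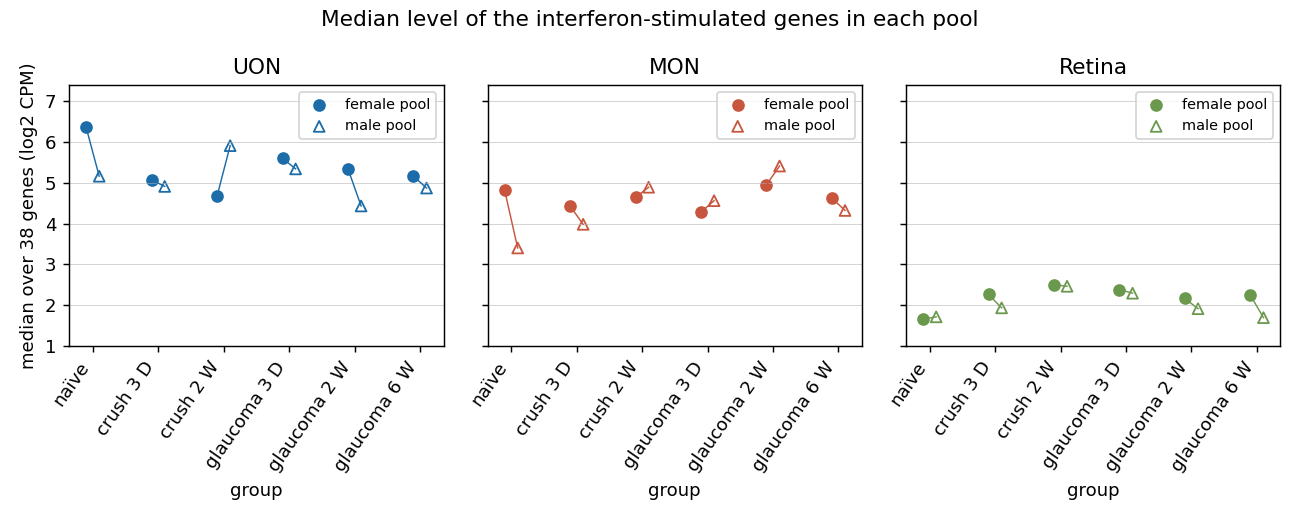
Median log2 CPM of the 38 interferon-stimulated genes in each of the 36 libraries, by tissue and group, with 1 point for each pool. The female naïve UON pool is the highest point at 6.36 and the male one lies at 5.16, while the naïve retina pools lie at 1.65 and 1.71.

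**Figure D3:**
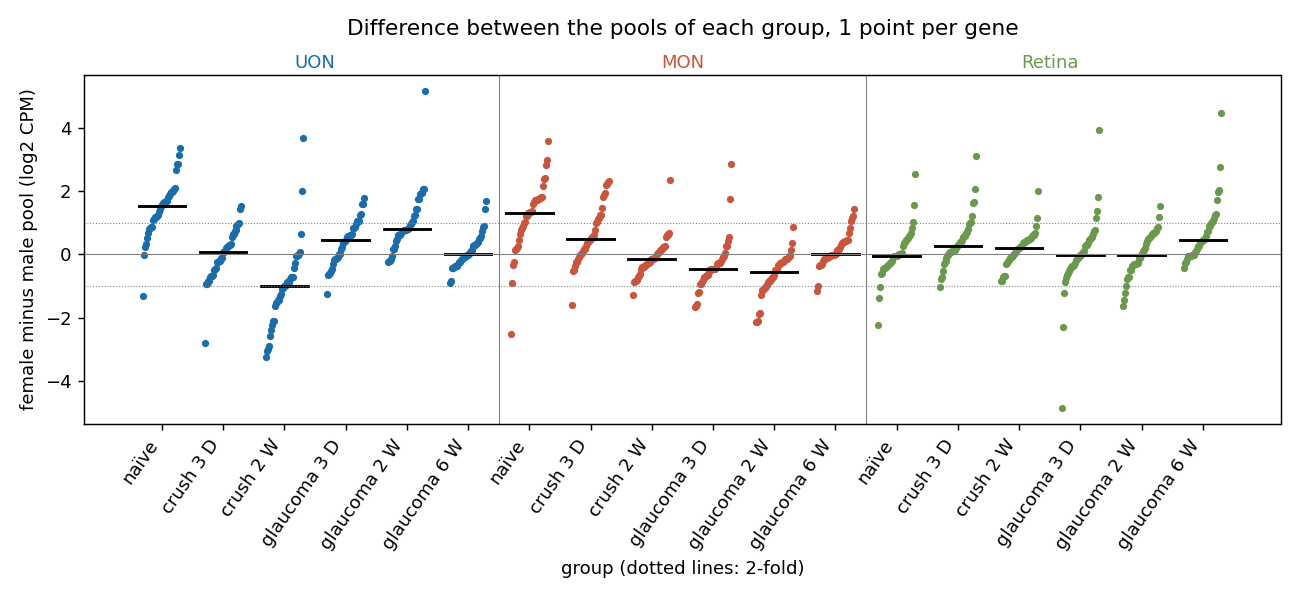
Female minus male log2 CPM of each of the 38 genes in the 18 groups of 2 pools, with the median marked. The naïve UON and MON columns lie mostly above 0, with medians of 1.54 and 1.32, and the UON 2 W crush column lies mostly below it, with a median of -1.

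The next question was whether injury of the axons moved the program. Across 15 comparisons of an injury group with naïve tissue, 1 gene passed the call in 1 comparison, Lgals3bp in MON at 2 W after crush. In the other 14, no member was called by edgeR, and DESeq2 called up to 9. Shares of all genes called are given for edgeR only. Counts from DESeq2 and of unadjusted p-values therefore have no share to be set against.

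In UON the median change of the 38 genes was below 0 in all 5 injury groups. At 3 D after crush 0 of 38 genes were called by edgeR (0% of all 21368 genes tested were called), 4 had an unadjusted p under 0.05, DESeq2 called 1, and the median log2 fold change was -0.72. Rsad2 read 7.96 and 6.26 CPM after 126 and 12 in naïve pools, the 2 crush pools being below both. Its log2 fold change was -2.90 ± 0.97 (adjusted p 1). Both crush pools were below both naïve pools for 12 of 38 genes, against 18% of all genes. Without the female naïve pool the median was 0.28, and without the male naïve pool it was -1.41, so the direction rested on the naïve libraries.

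At 2 W after crush the pools of UON parted the other way. Over the 38 genes the female pool held 1740 CPM and the male pool 4690, and the male pool was over 2-fold higher for 19 of 38, against 14.1% of all genes. Ifit1 read 64.7 and 616 CPM, Isg15 13.9 and 111, and Trim30a 27.6 and 145. Irf7 did not follow them, at 28.5 and 27.4, both below the naïve 103 and 56.9. In the same libraries the 10 myelin markers summed to 24700 and 3250 CPM, fibroblast markers to 1960 and 4220, microglial markers to 2230 and 1330, and monocyte and border macrophage markers to 50 and 169. Their part in the pool difference was not tested. With edgeR 0 of 38 genes were called against naïve, where 0.0281% of all genes were, 5 had an unadjusted p under 0.05 and DESeq2 called 2. The median was -0.30, and it was -1.34 without the male crush pool and 0.63 without the female one, 0.82 without the female naïve pool and -1.40 without the male naïve one. Ifit1 was at -0.81 ± 1.45 (adjusted p 0.893) and turned to 1.26 without the female crush pool and to 1.45 without the female naïve pool. Both crush pools lay above both naïve pools for 2 of 38 genes, Bst2 and Trim56, against 19.7% of all genes. They lay below for 6 of 38, among them the low gene Oas3, against 24.7% of all genes.

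In glaucoma UON the medians were below 0 at all 3 times. At 3 D, 0 of 38 genes were called by edgeR (0% of all genes), 3 had an unadjusted p under 0.05, DESeq2 called 0, and the median was -0.21, or 0.41 without the female naïve pool, -0.57 without the male naïve pool, and -0.50 and -0.12 without the male and the female glaucoma pool. Ifi27l2a read 176 and 200 CPM against 109 and 76 and did not overlap (1.07 ± 0.28, adjusted p 1). At 2 W, 0 were called (0% of all genes), 18 had an unadjusted p under 0.05, DESeq2 called 3, all lower, and 36 of 38 had a negative log2 fold change, with a median of -0.79. Rtp4 read 32.7 and 8.52 CPM (-2.03 ± 0.35, adjusted p 1), Rsad2 16.6 and 4.29 (-2.36 ± 0.66, adjusted p 1) and Ifit1 139 and 59.2 against 1080 and 148 (-2.31 ± 0.61, adjusted p 1). Both glaucoma pools lay below both naïve pools for 12 of 38, against 18.4% of all genes, among them Ifit1, Ifit2, Isg15 and Irf7. At 6 W, 0 were called (0% of all genes), 10 had an unadjusted p under 0.05, DESeq2 called 0, and the median was -0.75, with 12 of 38 below without overlap, against 15.6%. Without the female 6 W pool that median was -0.29. The medians at 2 W and 6 W were nearer to 0 without the female naïve pool, at -0.36 and -0.16, and farther from it without the male naïve pool, at -1.24 and -1.27. The male pool at 2 W was the lowest of the 12 UON libraries for 18 genes, and the female pool was over 2-fold above it for 14 of 38, against 20.2% of all genes.

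Direct comparison of times set no group against naïve. The naïve pools were still in these fits and entered their sex term and spread. In UON at 6 W of glaucoma against 3 D, 36 of 38 genes had a negative log2 fold change, the median was -0.63, and both 6 W pools were below both 3 D pools for 23 of 38, against 19.4% of all genes. That median was -0.22 without the female 6 W pool, -1.04 without the male 6 W pool and -0.42 without the male 3 D pool. Irf7 read 123 and 192 CPM at 3 D and 34.7 and 65.3 at 6 W (-1.72 ± 0.47, adjusted p 0.945). It also read 84.4 and 152 at 3 D after crush and 28.5 and 27.4 at 2 W (-2.11 ± 0.45, adjusted p 0.444), and its 3 D pools were above its 2 W pools in crush and above its 2 W and 6 W pools in glaucoma. edgeR called 0 of 38 in either comparison, where 0% and 0.00468% of all genes were called. Unadjusted p-values under 0.05 were seen for 7 genes in glaucoma and 3 after crush, and DESeq2 called 1 and 2. Over all 38 the crush comparison had a median of 0.61, which was -0.52 without the male 2 W pool and 1.25 without the female 2 W pool.

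In MON, which crush damages directly, the genes moved little at 3 D. There 0 of 38 were called by edgeR where 4.26% of all genes were, 8 had an unadjusted p under 0.05, DESeq2 called 5 (3 higher, 2 lower), and the median was 0.18. It was 0.60 without the female naïve pool, -0.17 without the male one and 0.12 without the female crush pool. The female pool was over 2-fold above the male pool for 13 of 38, against 11.4% of all genes. Zbp1 read 8.13 and 6.76 CPM against 2.55 and 0.707, with no overlap (2.41 ± 0.60, adjusted p 0.0701). The IFIT genes had a negative median of -0.94, Ifit1 reading 72.7 and 14.8 against 140 and 19.8, with overlap.

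At 2 W after crush Lgals3bp was called in MON. Lgals3bp lies on the minus strand at chr11:118392751-118402092 (GRCm38) and encodes a secreted galectin-binding glycoprotein. It read 714 and 466 CPM against 114 and 101 in naïve MON and 153 and 90.6 at 3 D, so that both 2 W pools were above all 4 others. The log2 fold change was 2.51 ± 0.33 (edgeR adjusted p 0.0199). The call was lost without either naïve pool, at 2.2 (adjusted p 0.146) without the female one and 2.86 (0.061) without the male one, and it held without either crush pool. It was 1 of 38 genes called, where 2.13% of all genes were called higher. Lgals3bp included, 11 genes had an unadjusted p under 0.05, and DESeq2 called 8, of which 7 were higher.

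Other genes of MON at 2 W after crush were higher without passing. Trim30a read 27.3 and 23.1 CPM against 8.24 and 9.72 (1.56 ± 0.37, adjusted p 0.0782) and Bst2 90.3 and 76.1 against 36.1 and 46.1 (1.12 ± 0.28, adjusted p 0.0907), both without overlap. Over the 38 genes the median was 0.64, 30 had a positive log2 fold change and 17 were above naïve without overlap, against 26.4% of all genes. The low gene Oas3 was among these 17. Trim56 was the 1 gene below naïve without overlap, against 22.2% of all genes. In UON at that time both Oas3 and Trim56 went the other way. The median was 1.05 without the female naïve pool, 0.10 without the male naïve pool, 0.16 without the male crush pool and 1.18 without the female crush pool, and the number of calls ran from 0 to 10. The 10 microglial markers, none at 0, summed to 4720 and 3040 CPM against 1350 and 1170, and the 10 myeloid markers, none at 0, to 11100 and 6340 against 1770 and 2160. At 2 W these sums were above naïve, as Lgals3bp was. At the earlier time after crush the sums, given below, were also above naïve in both pools, and Lgals3bp overlapped its naïve level. Between that time and 2 W the microglial sum rose in both pools, as Lgals3bp did. The myeloid sums of these times overlapped. The part of these markers in the Lgals3bp change was not tested.

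In glaucoma MON the median was highest at 2 W. Then 36 of 38 genes had a positive log2 fold change, the median was 1.07 and 25 of 38 were above naïve without overlap, against 20.7% of all genes. Still 0 of 38 were called by edgeR, where 0% of all genes were called, 18 had an unadjusted p under 0.05 and DESeq2 called 9. Trim30a read 22.6 and 25.2 CPM (1.42 ± 0.31, adjusted p 0.295), Ddx58 40.7 and 48.6 against 25 and 14.1 (1.24 ± 0.27, adjusted p 0.295) and Zbp1 7.62 and 13.8. In these both pools were high. In Irf7 the female pool read 31 and the male 136 against 34.5 and 16.9 (1.58 ± 0.69, adjusted p 0.575), so that 1 pool overlapped the naïve level. In Oasl2 they read 73.4 and 180 against 77 and 25.4 (1.28 ± 0.57, adjusted p 0.59), and the female glaucoma pool lay just below the female naïve pool in these CPM but above it with the factors of the fit. In the CPM printed here 22 of 38 genes were without overlap, Cmpk2, Isg15 and Oasl2 being the difference.

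This shift rested on more than 1 pool. The male naïve pool was the lowest of the 12 MON libraries for 18 of 38 genes. The male 2 W glaucoma pool was the highest of the 12 for 29 of 38 genes. It summed to 2850 CPM against 1840 in the female pool, and was over 2-fold above the female pool for 11 of 38, against 13.2% of all genes. The median against naïve was 0.70 without it and 1.37 without the female glaucoma pool, and 2.05 or 0.45 without the female or the male naïve pool. The male 2 W glaucoma pool held 2330 CPM of 6 surface epithelium markers, all above 0, against 6.36 in the female pool, with 2 markers at 0. Microglial markers were at 2000 in it and 3050 in the female pool. The female pool of MON at 6 W held 3210 CPM of the epithelial markers and 1450 CPM of the interferon-stimulated genes. The part of these markers in the result was not tested.

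At 3 D and 6 W of glaucoma MON stood near naïve. edgeR called 0 of 38 at both times (0% and 0% of all genes), 2 and 1 had an unadjusted p under 0.05, and DESeq2 called 1 and 0. The medians were 0.16 and 0.10. Without the female naïve pool they were 1.05 and 0.90, and without the male naïve pool -0.41 and -0.44. Without the female glaucoma pool they were 0.49 and -0.02, and without the male glaucoma pool -0.12 and 0.21. Within the glaucoma series, 6 W against 3 D gave a median of 0.05 with 0 called by edgeR (0% of all genes), 0 at an unadjusted p under 0.05 and 0 by DESeq2, and that median was -0.28 without the female 3 D pool, 0.31 without the male 3 D pool and -0.03 without the female 6 W pool. From 3 D to 2 W after crush the median in MON was 0.45 (-0.08 without the male 2 W pool, 0.89 without the female 2 W pool and 0.28 without the male 3 D pool), with 0 called by edgeR (0.075% of all genes), 4 at an unadjusted p under 0.05 and 2 by DESeq2.

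In the retina the genes were low. After crush the median shift was larger at 2 W than at 3 D, and at 2 W the retinal ganglion cell markers stood at 138 and 119 CPM against 1030 and 954 in naïve retina. Of 37 genes tested, Mx1 being too low, 35 had a positive log2 fold change, the median was 0.82 and 28 were above naïve without overlap, against 20.7% of all genes. Lgals3bp read 28.5 and 23.7 CPM against 11 and 8.32 (1.40 ± 0.20, adjusted p 0.0717). Irf9 read 21.6 and 21 against 9.69 and 8 (1.24 ± 0.19, adjusted p 0.0843). Oasl2 read 26.5 and 19.5 against 8.71 and 9.25 (1.3 ± 0.21, adjusted p 0.0863), and Ifit1 14 and 9.17 against 2.92 and 3.97 (1.71 ± 0.32, adjusted p 0.126). In all 4 genes the pools of the groups did not overlap, and none passed the call.

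edgeR called 0 of 37 in retina at 2 W after crush, where 0.313% of all genes were called, 16 had an unadjusted p under 0.05, and DESeq2 called 8. Leaving out each library in turn moved the median between 0.67 and 1.0, so its direction did not rest on a single pool. At 3 D the median was 0.29, 0 of 37 were called (0.0221% of all genes), 12 had an unadjusted p under 0.05, DESeq2 called 0, and 19 of 37 were above naïve without overlap, against 19.8%. From 3 D to 2 W the median was 0.45, or 0.25 without the male 3 D pool, and 22 of 37 were higher without overlap, against 17.2%, with 0 called (0.0485%), 7 at an unadjusted p under 0.05 and 0 by DESeq2. Oasl2 read 12.6 and 13 at 3 D, between naïve and 2 W (2 W against 3 D 0.79 ± 0.21, adjusted p 0.491). The 10 microglial markers summed to 101 and 79.4 CPM at 2 W against 58.6 and 48.9, and the 10 myeloid markers to 149 and 125 against 48.4 and 47.4, all above 0. Their part in the shift was not tested.

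In glaucoma retina the median shift was larger at 3 D than later. At 3 D, 36 genes were tested, since Mx1 and Oas3 were too low, and 30 had a positive log2 fold change, with a median of 0.71. Irf9 read 23.7 and 16.5 CPM against 9.69 and 8 (1.18 ± 0.29, adjusted p 0.567). Oasl2 read 18.9 and 20.8 (1.14 ± 0.21, adjusted p 0.439), and Ifi27l2a read 3.15 and 3.99 against 0.32 and 0.507. None of the 3 overlapped naïve. edgeR called 0 of 36 (0.00429% of all genes), 10 had an unadjusted p under 0.05, DESeq2 called 4, and 24 of 36 were above naïve without overlap, against 18.7%. When a library was left out, which let 37 or 38 genes pass the filter, the median lay between 0.43 and 0.68.

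At 2 W and 6 W the medians of glaucoma retina were 0.38 and 0.32. edgeR called 0 of 36 at both times (0% and 0.00858% of all genes), 6 and 6 had an unadjusted p under 0.05, DESeq2 called 0 and 0, and 17 and 15 of 36 were above naïve without overlap, against 20.6% and 21.9%. The 6 W median was 0.04 without the female glaucoma pool, 0.52 without the male glaucoma pool and 0.12 without the female naïve pool. Between 6 W and 3 D the median was -0.32, or -0.52 without the female 6 W pool and -0.21 without the male 3 D pool, with 0 called by edgeR (0.0129%), 1 at an unadjusted p under 0.05 and 0 by DESeq2. Microglial markers in retina were at 91.2 and 130 CPM at 3 D, 84.3 and 61.7 at 2 W, and 74.3 and 75.5 at 6 W, against 58.6 and 48.9 in naïve retina.

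**Figure D4:**
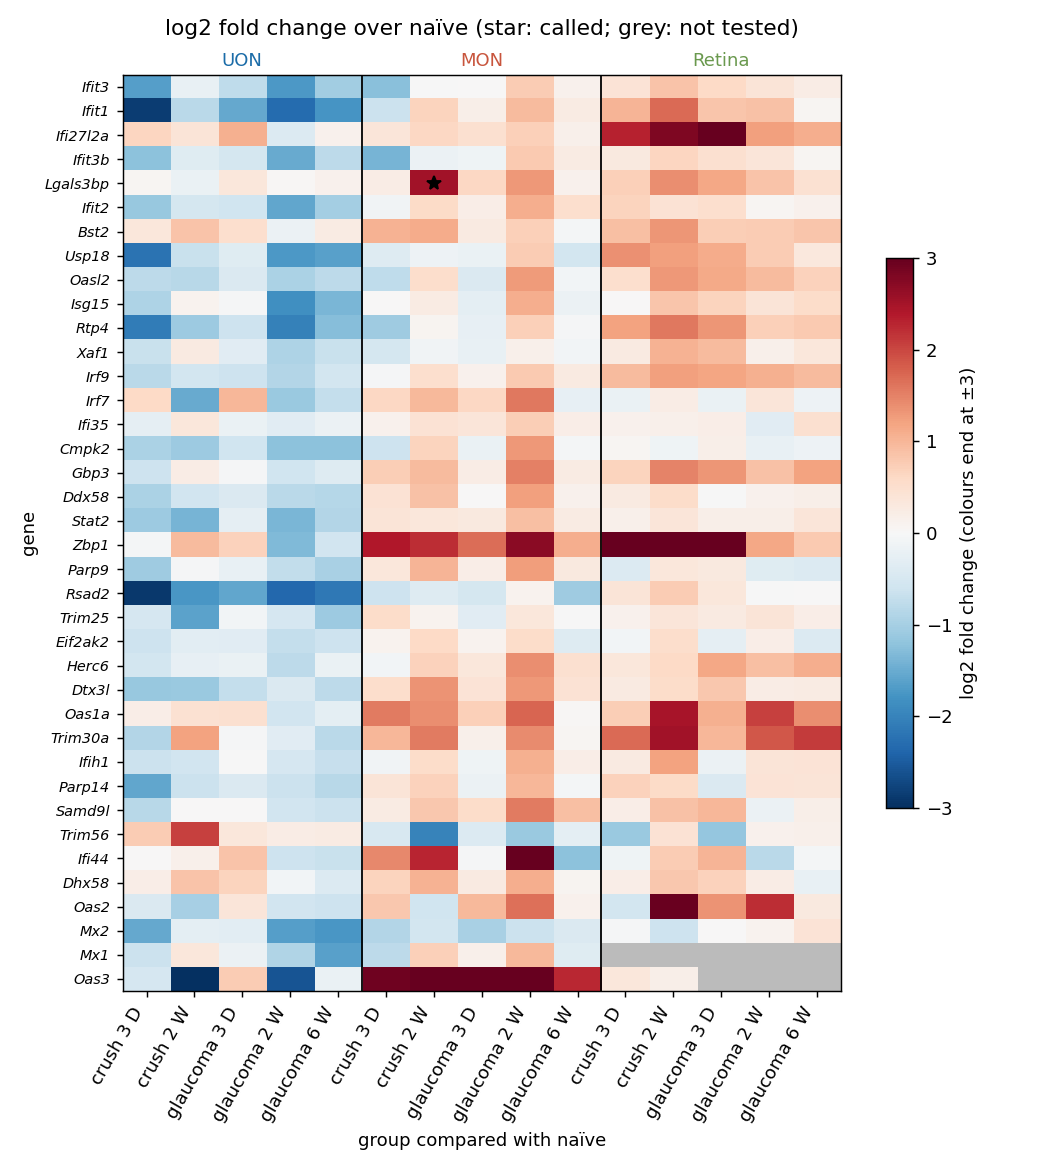
Fitted log2 fold change against naïve of each of the 38 genes (rows) in the 15 injury groups (columns), on a colour scale from lower to higher. Rows are ordered by mean FPKM in naïve UON, called values are marked with a star and untested ones are grey. Retina columns are mostly positive, UON glaucoma columns at 2 W and 6 W mostly negative, and the 1 marked value is Lgals3bp in MON at 2 W after crush.

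**Figure D5:**
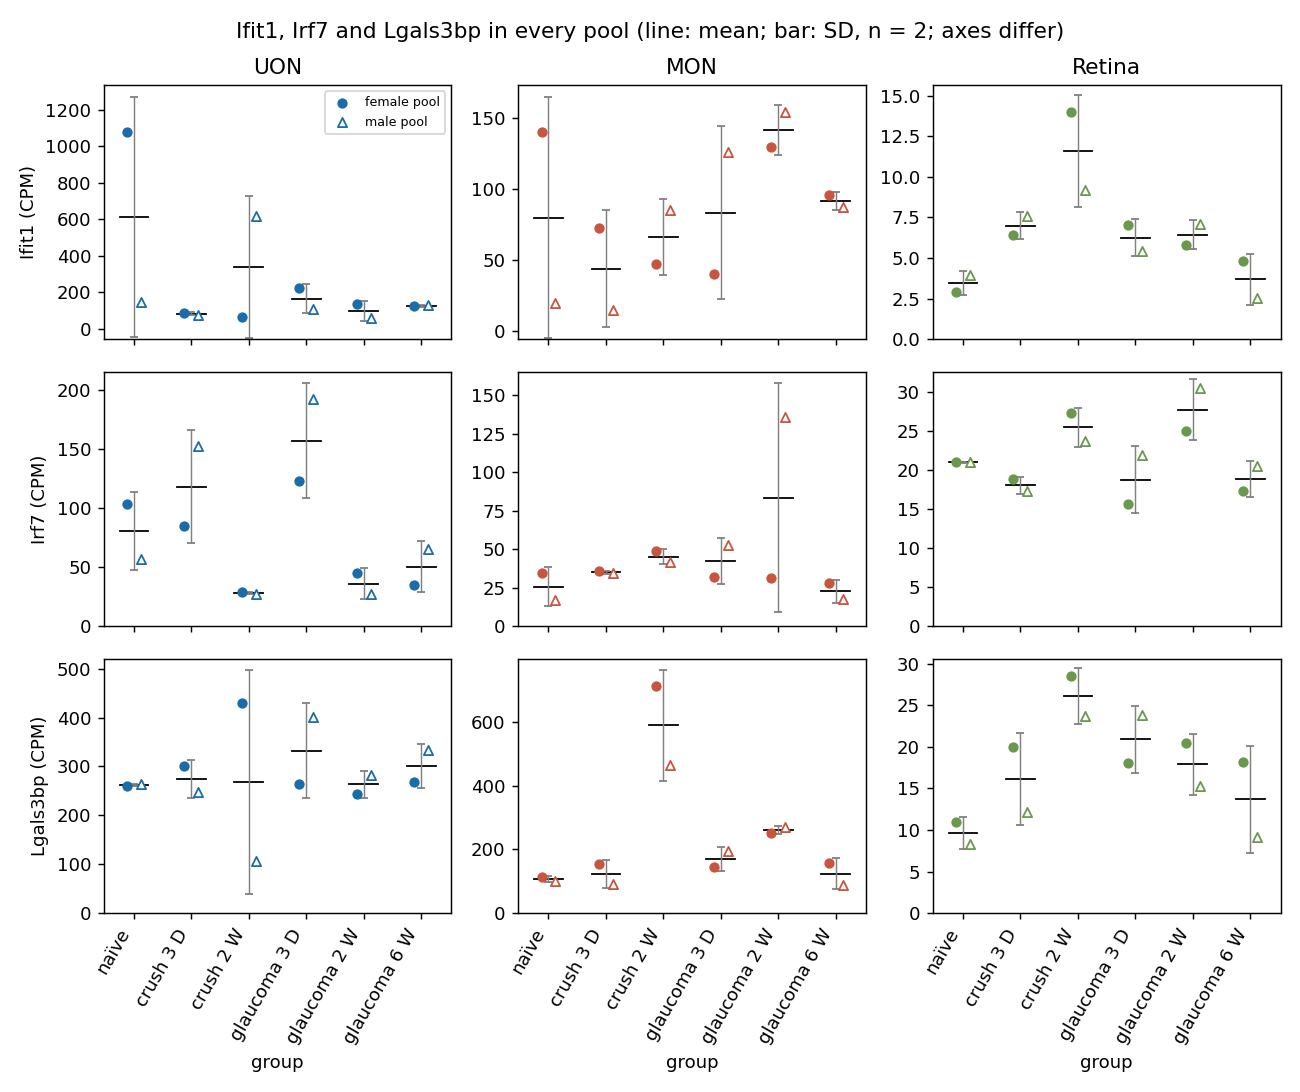
CPM of Ifit1, Irf7 and Lgals3bp in every library, by tissue and group, on linear axes that differ between panels. Female and male pools are separate points, with the mean as a line and the SD of the 2 pools as a bar. Ifit1 is highest in the female naïve UON pool at 1080, Irf7 in UON lies higher at 3 D than at later times, and Lgals3bp in MON at 2 W after crush (714 and 466) is above every other MON library.

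The comparisons with naïve share their naïve pools, so crush and glaucoma were also compared directly at matched times. In MON at 2 W, 34 of 38 genes had a lower fitted level after crush than in glaucoma, with a median of -0.68, and 24 lay below without overlap, against 19.4% of all genes. Lgals3bp went the other way at 714 and 466 CPM after crush against 252 and 271 in glaucoma (1.19 ± 0.33, adjusted p 0.39). The median was -0.10 without the male glaucoma pool, -0.89 without the female one and -0.38 without the female crush pool. edgeR called 0 of 38 (0.0485%), 2 had an unadjusted p under 0.05, and DESeq2 called 1. In retina at 2 W the median was 0.49 in the direction of crush, with 21 of 37 above without overlap, against 18.3%, 0 called (0.113%), 4 at an unadjusted p under 0.05 and 0 by DESeq2. In UON at 2 W it was 0.93, with 0 called (0.0418%), 7 at an unadjusted p under 0.05 and 1 by DESeq2, and up to 9 called when 1 library was left out. That median was -0.44 without the male crush pool, 1.46 without the female crush pool and 0.45 without the male glaucoma pool.

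At 3 D the medians of crush against glaucoma were -0.43 in UON, -0.24 in MON and -0.18 in retina. In MON the median was 0.25 without the male glaucoma pool, 0.05 without the male crush pool and -0.39 without the female crush pool, and in UON it was -0.68 without the male crush pool. edgeR called 0 members in each tissue (0%, 0.0162% and 0.0081% of all genes), 0, 2 and 2 had an unadjusted p under 0.05, and DESeq2 called 0 in each.

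Whether MON and UON differed in their response was tested as the interaction of tissue and group. At 2 W of glaucoma the response was higher in MON for 37 of 38 genes, with a median difference of 2.27 on the log2 scale. edgeR called 0 of 38 (0% of all genes), 30 had an unadjusted p under 0.05, and DESeq2 called 4. Zbp1 had a difference of 4.24 ± 0.86 (adjusted p 0.727), reading 12.5 and 4.6 CPM in UON and 7.62 and 13.8 in MON after 29.6 and 13.1 and 2.55 and 0.707 in the naïve regions. Ddx58 had a difference of 2.14 ± 0.44 (adjusted p 0.727), and Ifit2 one of 2.84 ± 0.71 (adjusted p 0.745). The median stayed between 1.39 and 2.90 when a library was left out. The naïve order of the regions was also turned for these genes within 1 pool of mice. UON was above MON for 27 to 38 genes in 11 of the 12 pools. In the male pool at 2 W of glaucoma it was above for 3 of 38, with a median difference of -1.22. No share of all genes is given for these counts, so a shift of all genes in that pool is not set apart.

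At 2 W after crush the interaction had a median of 0.88. Lgals3bp differed by 2.64 ± 0.63 (adjusted p 0.175), reading 429 and 106 CPM in UON against 714 and 466 in MON. edgeR called 0 of 38 (0%), 7 had an unadjusted p under 0.05, and DESeq2 called 5. The median ran from -0.09 without the female naïve UON pool to 2.17 without the male UON crush pool. At 3 D after crush, 3 D of glaucoma and 6 W of glaucoma the medians were 0.78, 0.54 and 1.03. Without the female naïve UON pool they were 0.17, -0.20 and 0.20, without the male naïve UON pool 1.53, 0.93 and 1.55, and without the female naïve MON pool 1.31, 1.18 and 1.85. The median at 3 D of glaucoma was also 0.04 without the male MON glaucoma pool, 0.89 without the female one and 0.21 without the male naïve MON pool, and that at 3 D after crush 0.49 without the male naïve MON pool. edgeR called 0 members in each (0.012%, 0% and 0% of all genes), 3, 0 and 4 had an unadjusted p under 0.05, and DESeq2 called 0 in each.

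The rest of the pathway was read from lists of genes outside the 38, grouped by role. The 21 interferon genes themselves were nearly silent, with 14 to 20 of them at 0 in each library and a summed level of at most 1.53 CPM in any of the 36. The receptor gene Ifnar1 read 92.8 and 77.8 CPM in naïve UON and 71.7 and 55.8 in MON. Of 24 interferon-gamma GTPases and targets tested, 10 were called higher in UON than MON and none lower, where 4.83% of all genes were called higher, among them Gbp2 (1.88 ± 0.21, adjusted p 0.0031). Of 64 other interferon-induced genes 8 were called higher, led by Tor3a at 293 and 169 CPM against 59 and 32.1 (2.33 ± 0.21, adjusted p 0.00166). Among 11 receptor and JAK-STAT genes, Il10rb, a shared receptor subunit, was called higher in UON (2.00 ± 0.23, adjusted p 0.00333), while the kinase gene Jak2 was called lower (-1.27 ± 0.22, adjusted p 0.0149). Irf1 was the 1 of 5 other interferon regulatory factors called (1.18 ± 0.26, adjusted p 0.0342). Of 20 further sensors and adaptors 2 were called higher, and of 7 negative regulators 0 were called.

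After crush several of these genes passed in MON. At 2 W the calls, all higher, were 2 of 11 receptor and JAK-STAT genes, 2 of 5 regulatory factors, 3 of 20 sensors and adaptors, 2 of 7 negative regulators, 3 of 24 interferon-gamma targets and 2 of 64 other induced genes, where 2.13% of all genes were called higher. They included Irf8, a factor of myeloid cells, at 230 and 181 CPM against 40.7 and 39.6 (2.46 ± 0.33, adjusted p 0.0212), Tap1, the peptide transporter, at 58.5 and 45.5 against 22.5 and 14.1 (1.62 ± 0.27, adjusted p 0.0347) and the nucleic acid receptor gene Tlr7 (2.34 ± 0.40, adjusted p 0.0353). At 3 D the counts were 2, 2, 3, 2, 0 and 6 in the same order of lists, all higher, where 3.61% of all genes were called higher. Socs3, a feedback inhibitor of JAK signalling, read 148 and 159 at 3 D against 23 and 18.6 (2.99 ± 0.30, adjusted p 0.00737). The 10 microglial markers summed to 2120 and 2110 CPM in MON at 3 D and the 10 myeloid markers to 5090 and 7390, none at 0, against the naïve and 2 W sums given above, and the part of those cells was not tested. The other injury groups gave 1 call in these lists, Ube2l6, the conjugating enzyme of the ISG15 system, in retina at 2 W after crush, at 15.4 and 9.73 CPM against 2.1 and 1.52 (2.73 ± 0.27, adjusted p 0.0202).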

How the data were processed

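Estimated counts per gene were read from the deposited gene count table of the 36 libraries. Per the labels, the authors used FastQC, HISAT2 2.2.1 and StringTie 1.3.0 on GRCm38, and made the counts with StringTie's count script on Gencode M25, without normalization. Such counts come from read coverage and transcript length, and 1 read pair adds about 4 of them, so counting noise is larger than the counts alone show. The deposited FPKM are the authors' StringTie values, and values just below 0 were set to 0. They were used for naïve levels only. The strand setting of the counting is not given in the sources used here. Exons of Irf7, Dhx58, Eif2ak2, Usp18, Ifi35, Parp9 and Dtx3l overlap another gene on the opposite strand. Those of Irf9, Herc6, Rtp4 and Parp14 overlap another gene on the same strand.

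From the counts, edgeR 4.0.16 in R 4.3.3 was run with TMM normalization, filterByExpr (minimum count 10, minimum total 15) and the quasi-likelihood F test. The code was first run on simulated counts. These had less spread between libraries than the data, so that run does not show how the test performs here. Groups were tissue, treatment and time from the sample titles, with sex as a term. The fits held the 6 naïve libraries for regions, 6 (crush) or 8 (glaucoma) libraries of a tissue for injury and time, 12 libraries of a tissue for crush against glaucoma, and 12 or 16 nerve libraries for the interaction. With 2 pools per group these had 2 to 7 residual degrees of freedom. The sex term takes out a female to male difference that the groups of a fit share. The p-values measure the spread between pools that is left. SE is the log2 fold change divided by the root of F. Genes were called at an adjusted p under 0.05 over all genes tested and a log2 fold change beyond 1. CPM use TMM factors over all 36 libraries, and log2 CPM a prior count of 2. Counts of genes without overlap use the factors of each fit. Shares of genes without overlap or over 2-fold between pools were taken over all genes tested or listed, and carry no test. No share over all genes is given for DESeq2 calls, unadjusted p-values or calls under the alternatives. Nor is one given for the order of regions within a pool, the sign of fold changes or the library that was highest or lowest.

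Every one of the 38 genes was to be named with its naïve level, then in each comparison those called and up to 4 more per role group. The genes, the pathway and marker lists, the rule and the alternatives were chosen with earlier results of these data known, and no list was tested as a set. Alternatives were DESeq2 1.42.0, median-of-ratios factors, no filter on low counts, counts divided by 4, no sex term, all libraries of a tissue (or all 36) in 1 fit, the pool of mice as a replicate block, and each library left out in turn. The per-library TPM were not used here, and 1 gene that the rule named outside the 38 is not reported here. Promoters were RefSeq sequences of GRCm38.p6.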

Additional observations from a re-analysis of the deposited data

How the results depend on the processing

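Over the libraries left out, the number of the 38 genes called ran from 5 to 30 for naïve UON against MON, from 23 to 31 for MON against retina and from 33 to 37 for UON against retina. It ran from 0 to 10 in MON at 2 W after crush, from 0 to 4 in MON at 3 D, from 1 to 9 for 2 W against 3 D in MON, from 0 to 1 in retina at 2 W after crush, from 0 to 9 for crush against glaucoma in UON at 2 W, and from 0 to 4 for the MON and UON interaction at 2 W after crush. Direction turned for Irf7 in naïve MON against retina, to -0.01 without the female MON pool and -0.20 without the female retina pool (up to 0.72 without the male retina pool), and for Ifit1 in UON at 2 W after crush, to 1.26 without the female crush pool and 1.45 without the female naïve pool (down to -3.53 without the male crush pool). With a library left out, 195 of the log2 fold changes of named genes kept direction and call, 22 lost the call and 11 gained it, and under the other settings 257 kept both, 13 lost the call and 49 gained it.

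DESeq2 called more genes in every comparison where the 2 tools differed by over 1.5 times. No share of all genes is given for these counts or for those with a library left out. It called 26 for naïve UON against MON where edgeR called 14. In UON it called 1 at 3 D and 2 at 2 W after crush, 2 for 2 W against 3 D, 3 at 2 W of glaucoma and 1 for 6 W against 3 D. In MON it called 5 and 8 at 3 D and 2 W after crush, 2 between these times, and 1 and 9 at 3 D and 2 W of glaucoma. In retina it called 8 at 2 W after crush and 4 at 3 D of glaucoma. It called 1 for crush against glaucoma at 2 W in UON and 1 in MON, and for the interaction 5 at 2 W after crush and 4 at 2 W of glaucoma. Without the filter on low counts, 31 were called for naïve UON against MON, 5 and 6 in MON at 3 D and 2 W after crush, 4 between these times, 4 in retina at 2 W after crush, 1 for crush against glaucoma in UON at 2 W and 6 for the crush interaction at 2 W. Without the sex term, 5 were called for naïve UON against MON, 1 and 3 in MON at 3 D and 2 W after crush, 1 between them and 1 in retina at 2 W after crush. With all 12 libraries of a tissue in 1 fit these last 4 comparisons gave 1, 2, 1 and 1, and with counts divided by 4 MON at 2 W against 3 D gave 1. With the CPM factors of all 36 libraries, an alternative chosen after seeing the data, the number of genes without overlap was within 1.5 times for 56 of 60 counts. The causes were not tested. With the pool of mice as a replicate block, 0 of 38 were called for each of the 5 interactions, as without it. The same mice gave each tissue, so sex pairs the naïve tissues.

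With 2 pools per group, female and male, sex, mice and library cannot be told apart, and the naïve pools that differ enter every comparison with naïve. The estimated counts give no floor in molecules, and Oas2, Oas3 and Mx1 were near 0 in every retina library.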
